A study of Mus musculus with 23 samples.

Results

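The 45 genes described here encode the machinery that copies DNA in S phase and the enzymes that make its building blocks, and they were followed over mouse medulloblastoma (MB) models, granule neuron precursors and the adult cerebellum. They are the MCM helicase and origin recognition genes, licensing factors, the CMG partners Cdc45 and GINS, the sliding clamp and its loader, the replicative polymerases and primase, the RPA single-strand binding proteins, the Okazaki fragment enzymes, and 4 genes of nucleotide synthesis. They were chosen by name and function, and all 45 are among the 18194 genes that have a probe set of their own on the array. Where several probe sets were annotated to a gene alone, the brightest on average over the 23 arrays stood for it.

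MBs in which CRISPR/Cas9 disrupted Ptch1 somatically were set against other MB models and non-tumour references, to ask which of these they resemble. Expression was read on 23 Affymetrix whole-genome mouse arrays. Of the 3 CRISPR-Ptch1 tumours, 2 arose after in utero electroporation of the embryonic cerebellum (EP 1 and EP 2) and 1 arose after transfection of the neonatal cerebellum (TF). The TF tumours of the study came from Trp53-/- mice, so that this array differs from the EP arrays in both delivery and Trp53. The references were 4 tumours of mice with a germline disruption of Ptch1 (Ptch1+/-), 5 MERP tumours, in which Ptch1 was lost postnatally in cells that express Math1 (Atoh1-CreER;Ptch1 fl/fl, a recombinase active in the granule lineage), and 4 GTML tumours, which overexpress the Mycn oncogene from a Glt1-driven construct that also carries luciferase. Non-tumour samples were 3 preparations of granule neuron precursors (GNPs) taken between postnatal days 4 and 7, and 4 adult cerebella. The labels give CD1 as the strain of every sample, while the methods of the study name C57BL/6N for the transfected animals. Neither age, sex nor array run is given per tumour, and the labels do not say which samples came from separate animals. The p-values therefore measure the spread between these arrays, and array run and group cannot be told apart.

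Replication starts when the origin recognition complex, Cdc6 and Cdt1 load the MCM helicase on DNA in G1, and geminin (Gmnn) blocks a second loading in the same cycle. Cdc45 and the GINS complex then join MCM to form the active CMG helicase, behind which polymerase alpha with primase starts each strand, PCNA clamps hold the polymerases, RPA covers the single strands, and flap endonuclease and ligase join the fragments of the lagging strand. Many of these genes are transcribed under E2F factors and are on in dividing cells, such as the GNPs of the early postnatal external granule layer, and low in the postmitotic neurons of the adult cerebellum.

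The promoters of 37 of the 45 members were found in a RefSeq table of the mouse build GRCm38.p6, from 250 bases before to 50 after the gene start. Mcm4, Gmnn, Gins1, Gins2, Gins4, Rfc2, Prim2 and Pole had no entry. They were searched on both strands for 3 spellings of the E2F motif (TTTCGCGC, TTTGGCGC and TTTCCCGC), which can overlap each other and the GC box GGGCGG. These letters occurred in 14 of the 37 promoters (37.8%), against 3.01% of the promoters of 13274 protein-coding genes measured on the array. The CCAAT box was found in 59.5% of the members' promoters against 38.2%, and the GC box in 73% against 55.9%, at a median GC content of 60% against 59%. A match is a run of letters and not a shown binding site.

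To show what such promoters look like, the 200 bases before the start are given 5′ to 3′ for 5 members with an E2F match in this stretch, 1 or more from each of the MCM, origin, licensing, GINS and clamp loader groups, and for Rrm2 and Pcna, which had none. The capitals mark the E2F letters or their reverse complement. Mcm6 lies at chr1:128359706-128359905 on the minus strand, Orc1 at chr4:108579254-108579453 on the plus strand, Cdc6 at chr11:98907951-98908150 on the plus strand, Gins3 at chr8:95633359-95633558 on the plus strand, Rfc3 at chr5:151651209-151651408 on the minus strand, Rrm2 at chr12:24708054-24708253 on the plus strand and Pcna at chr2:132253181-132253380 on the minus strand.
Mcm6: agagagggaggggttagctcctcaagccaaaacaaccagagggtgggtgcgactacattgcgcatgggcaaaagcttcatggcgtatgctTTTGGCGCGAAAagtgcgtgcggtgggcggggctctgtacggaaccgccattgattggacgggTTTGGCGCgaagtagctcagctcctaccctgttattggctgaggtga
Orc1: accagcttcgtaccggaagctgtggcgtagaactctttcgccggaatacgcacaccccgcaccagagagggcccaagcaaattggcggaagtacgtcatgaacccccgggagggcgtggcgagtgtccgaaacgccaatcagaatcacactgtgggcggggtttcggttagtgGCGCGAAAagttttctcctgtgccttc
Cdc6: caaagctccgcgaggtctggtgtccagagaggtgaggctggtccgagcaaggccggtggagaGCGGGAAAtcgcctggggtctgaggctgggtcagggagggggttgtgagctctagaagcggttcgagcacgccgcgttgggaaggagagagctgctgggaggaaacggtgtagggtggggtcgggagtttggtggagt
Gins3: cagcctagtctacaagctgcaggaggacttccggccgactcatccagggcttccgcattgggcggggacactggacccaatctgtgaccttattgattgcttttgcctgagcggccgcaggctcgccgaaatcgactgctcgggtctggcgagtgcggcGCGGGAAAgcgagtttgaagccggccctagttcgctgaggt
Rfc3: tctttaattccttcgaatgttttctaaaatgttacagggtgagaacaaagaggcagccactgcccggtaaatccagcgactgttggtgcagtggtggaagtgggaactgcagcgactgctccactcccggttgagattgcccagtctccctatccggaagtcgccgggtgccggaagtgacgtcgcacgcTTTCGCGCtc
Rrm2: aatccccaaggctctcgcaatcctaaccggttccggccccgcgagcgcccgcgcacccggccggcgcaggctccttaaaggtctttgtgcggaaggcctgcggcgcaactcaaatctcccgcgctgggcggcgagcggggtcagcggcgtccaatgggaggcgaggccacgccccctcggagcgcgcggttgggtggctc
Pcna: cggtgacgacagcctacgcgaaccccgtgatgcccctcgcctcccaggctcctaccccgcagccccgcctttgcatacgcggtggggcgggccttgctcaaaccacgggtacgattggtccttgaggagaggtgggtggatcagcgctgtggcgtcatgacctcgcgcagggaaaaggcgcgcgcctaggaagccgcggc

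The matches were unevenly spread over the roles. In the MCM group, 4 of 5 promoters held 9 of the 20 matches, 3 of them in Mcm6, and 4 of 7 polymerase promoters held 4. The E2F letters were found in the promoters of Mcm3, Mcm5, Mcm6, Mcm7, Orc1, Orc3, Cdc6, Cdt1, Gins3, Rfc3, Pola1, Pold1, Pold3 and Pole2. No match lay in the windows of the 3 RPA genes, the 2 Okazaki fragment genes or the 4 genes of nucleotide synthesis, which says only that these letters are absent there. Members with a wide span between the group means held a match in 7 of 17 promoters, and the others in 7 of 20.

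**Figure D1:**
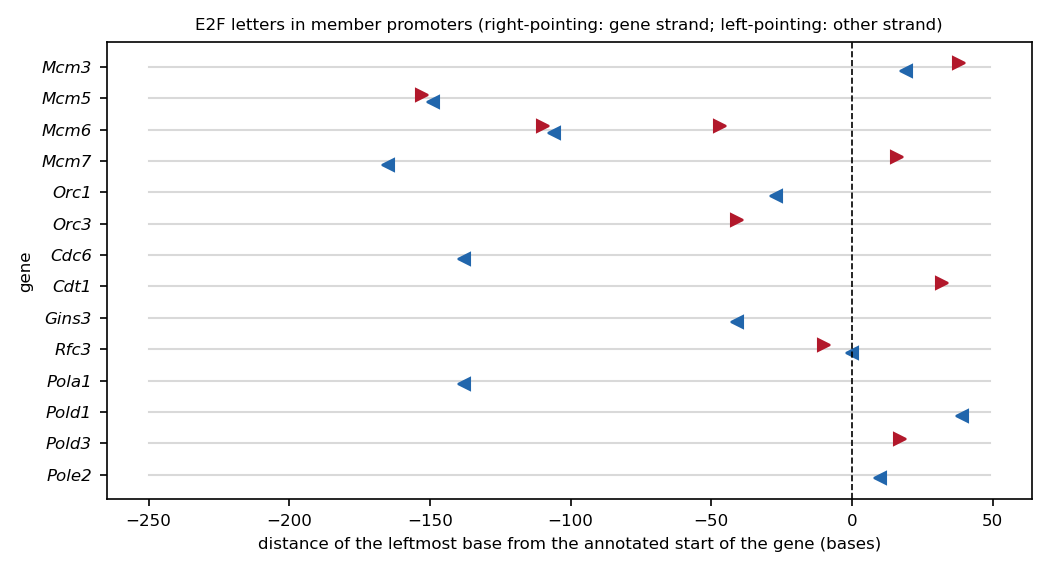
Positions of the E2F letters in the promoters of the 14 members that have them, in bases from the gene start on the x axis, with 1 row per gene. The MCM promoters hold 9 of the 20 matches, which lie on both sides of the start and not at 1 common distance.

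All values below are log2 expression values, on which a difference of 1 is a 2-fold change, and values of different genes are not compared with each other. Groups were compared in 1 limma fit of 6 groups over all 18194 genes, and a gene was called at a Benjamini-Hochberg adjusted p under 0.05. CRISPR-Ptch1 values are given in the order EP 1, EP 2 and TF. The number of arrays, 3 to 5 per group, limits the precision. As these are bulk samples, fewer cells of a type and less RNA per cell cannot be told apart.

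Features of the arrays themselves differed between the groups. The median over the 18194 genes was 7.04 in Ptch1+/-, 7.15 in GTML, 7.32 in MERP and 7.52 in CRISPR-Ptch1 tumours, 7.35 in adult cerebellum and 7.58 in GNPs. Centring the arrays on this median therefore shifts differences between groups, and its effect on the calls is given with the comparisons. Centring moves all genes of an array alike, and the share of all genes called after it is not given here. Counts of members after centring therefore show only how far the calls depend on the scaling. The gap between the 3′ and 5′ probe sets of the Gapdh and beta-actin controls, a measure of RNA integrity, was 0.19 to 0.23 in CRISPR-Ptch1 tumours, 0.31 to 0.53 in GNPs, 0.47 to 0.54 in adult cerebellum, 0.40 to 1.71 in MERP, 1.10 to 1.28 in GTML and 0.99 to 1.53 in Ptch1+/- tumours. Of 10 listed markers of dividing cells, 9 were measured. Their summed level was 7.40 to 8.38 in adult cerebellum and 14.2 to 14.9 in all other arrays, with Birc5, Aurkb, Cenpf and Kif11 near background in adult cerebellum. The adult arrays lacked the GNP factors Atoh1 and Nhlh1, and Gli1 was near background in GTML tumours.

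All 45 members had their lowest group mean in adult cerebellum, as had 26.6% of all genes. The mean over the members was 7.56 ± 0.06 (SD, n = 4) in adult cerebellum, 10.05 ± 0.18 (n = 4) in Ptch1+/-, 10.25 ± 0.12 (n = 3) in CRISPR-Ptch1, 10.40 ± 0.16 (n = 4) in GTML and 10.47 ± 0.07 (n = 5) in MERP tumours, and 10.33 ± 0.05 (n = 3) in GNPs. Adult cerebellum stood apart, and the other 5 groups lay close to each other. The median span between the highest and the lowest group mean was 2.96 for the members and 1.02 for all genes. Without adult cerebellum it was 0.67 for the members and 0.73 for all genes. The highest group mean was that of MERP tumours for 18 members, GTML for 13, GNPs for 10, and CRISPR-Ptch1 and Ptch1+/- for 2 each. Ptch1+/- tumours had the lowest of the 5 means without adult cerebellum for 30 members, and MERP tumours for 0. These ranks were not counted over all genes, whose array median was also lowest in Ptch1+/- tumours (7.04). Centring on that median can change them, so they are not read as a trait of the members.

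**Figure D2:**
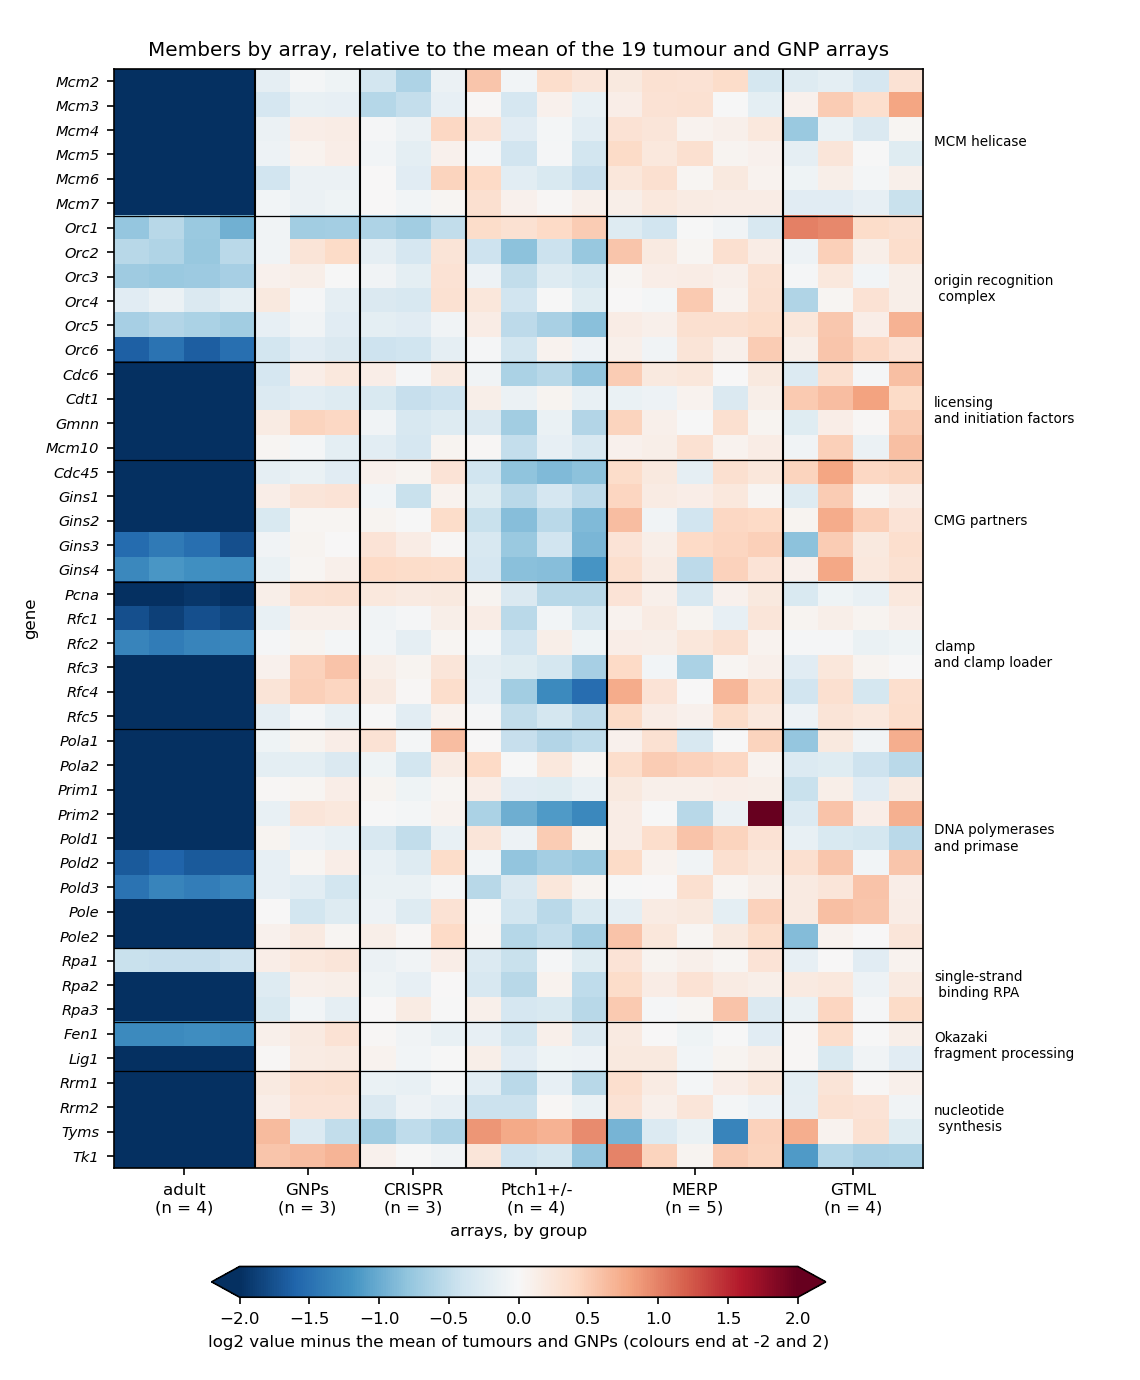
Heat map of the 45 members (rows, grouped by role) over the 23 arrays (columns, by group), as log2 expression minus the gene's mean over the 19 tumour and GNP arrays. The 4 adult cerebella are the low columns for nearly every member, the origin recognition genes are the palest rows there, and Prim2 stands out in 1 MERP array.

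Against adult cerebellum, the replication genes were higher as a group in every tumour model and in GNPs. Of the 45 members, 43 were higher and 0 lower in CRISPR-Ptch1 tumours (47.5% of all genes were called, 26.4% as higher), with a median log2 difference of 2.54. In Ptch1+/- tumours 40 were higher (53.2% of all genes called, 22.4% as higher; median 2.46), 44 in MERP (55.7%, 30.8% as higher; median 2.95), 44 in GTML (55.3%, 27.3% as higher; median 2.55) and 43 in GNPs (50.1%, 29.1% as higher; median 2.69). The median difference of all genes lay close to 0 in these comparisons, at 0.02, -0.03, 0.08, 0.04 and 0.03. Every member that was called stood above all adult arrays in each group, where 32.5%, 23.2%, 29.7%, 26.8% and 36.3% of all genes did so. The 5 comparisons share the 4 adult arrays and are not independent of each other. Centring on the median of the gene table lost the calls of Orc2, Orc5 and Rpa1 in CRISPR-Ptch1 tumours and of Orc5 in GNPs, and none in the other 3 groups. With the control gap as a covariate Orc5 was lost in CRISPR-Ptch1 tumours. Calls also depended on the probe set. With the probe set of highest SD, Orc2 and Orc3 were lost in MERP tumours, and 1 member was called the other way. In GNPs Orc2, Orc3 and Rfc1 were lost and 2 other members passed, and in CRISPR-Ptch1 tumours Rfc1 was lost. With the probe sets taken by the rule, the members that did not pass were Orc1 and Orc4 in CRISPR-Ptch1 tumours and in GNPs, Orc4 in MERP and GTML tumours, and Orc2, Orc4, Orc5, Gins4 and Rpa1 in Ptch1+/- tumours.

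**Figure D3:**
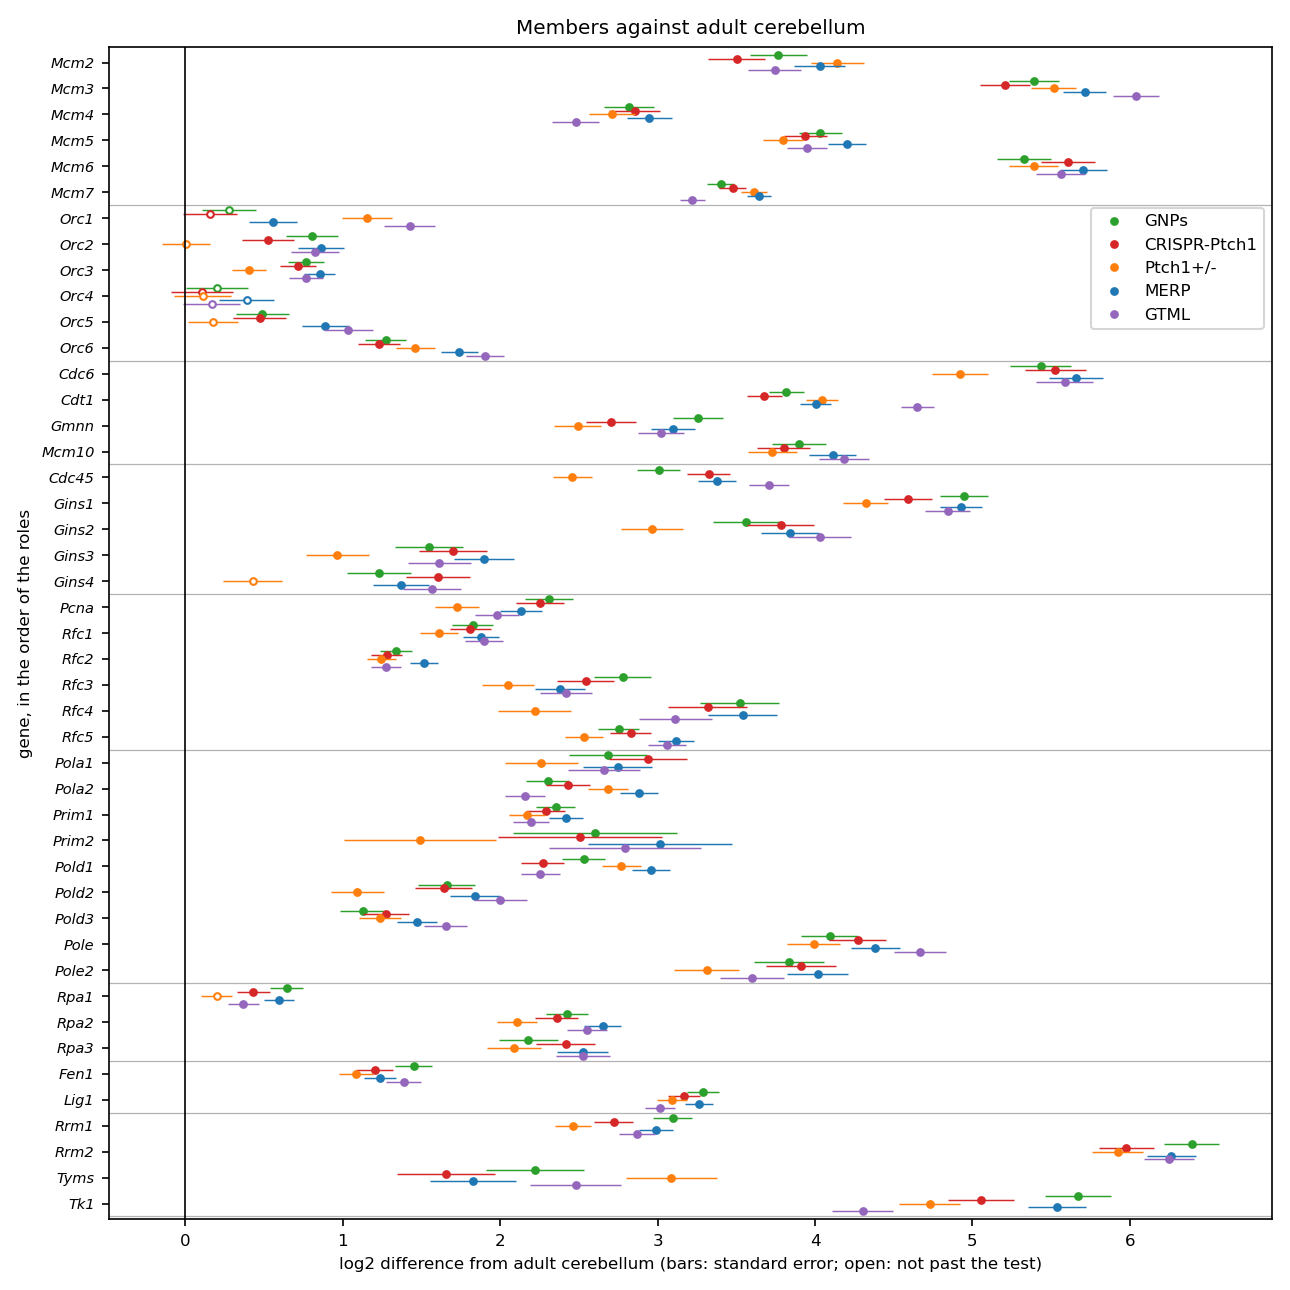
Log2 difference from adult cerebellum (x axis) with its SE for each of the 45 members (y axis, by role) in the 4 tumour groups and GNPs. Filled points passed the test at an adjusted p under 0.05 and open points did not; the open points lie among the origin recognition genes and, in Ptch1+/- tumours, at Gins4 and Rpa1.

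The 6 subunits of the MCM helicase, which unwinds DNA at the fork, were higher than in adult cerebellum in all 5 groups, with a median difference between 3.72 in CRISPR-Ptch1 and 4.12 in MERP tumours. Mcm3 had the widest span of them and read 10.69, 10.78 and 11.09 in the CRISPR-Ptch1, 11.29, 10.92, 11.34 and 11.10 in the Ptch1+/-, 11.39, 11.54, 11.56, 11.24 and 11.06 in the MERP and 11.34, 11.77, 11.59 and 12.04 in the GTML tumours. It read 10.92, 11.10 and 11.09 in the GNPs and 5.54, 5.85, 5.56 and 5.65 in adult cerebellum. No tumour or GNP array lay below 10.69, and no adult array above 5.85. The difference from adult cerebellum was 37-fold (log2 difference 5.21, SE 0.16, adjusted p = 1.05e-16) in CRISPR-Ptch1 tumours and 65.8-fold (log2 difference 6.04, SE 0.14, adjusted p = 2.39e-18) in GTML tumours. Mcm4, with the narrowest span, read 11.71, 11.60 and 12.14 in the CRISPR-Ptch1, 11.997, 11.49, 11.69 and 11.52 in the Ptch1+/-, 12.01, 11.98, 11.80, 11.83 and 11.94 in the MERP and 10.98, 11.59, 11.44 and 11.77 in the GTML tumours, and 11.60, 11.87 and 11.88 in the GNPs and 8.95, 8.87, 9.05 and 8.98 in adult cerebellum. Its groups did not overlap with adult cerebellum either, and the differences in CRISPR-Ptch1, Ptch1+/-, MERP, GTML and GNPs were 2.86, 2.71, 2.95, 2.48 and 2.82.

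The origin recognition complex, which marks the sites where replication starts and is also present on DNA outside S phase, had by far the smallest differences of the roles, with medians of 0.50 in CRISPR-Ptch1, 0.29 in Ptch1+/-, 0.86 in MERP, 0.93 in GTML and 0.63 in GNPs. Its widest member was Orc6, which read 9.65, 9.67 and 9.88 in the CRISPR-Ptch1, 10.04, 9.70, 10.14 and 9.97 in the Ptch1+/-, 10.17, 9.99, 10.32, 10.16 and 10.57 in the MERP and 10.18, 10.62, 10.47 and 10.34 in the GTML tumours, and 9.70, 9.84 and 9.77 in the GNPs and 8.44, 8.59, 8.42 and 8.56 in adult cerebellum. No array of a tumour or of GNPs overlapped with adult cerebellum for Orc6, and the differences were 1.23, 1.46, 1.74, 1.90 and 1.27 in CRISPR-Ptch1, Ptch1+/-, MERP, GTML and GNPs. Orc4 read 8.88, 8.86 and 9.47 in the CRISPR-Ptch1, 9.40, 8.79, 9.17 and 8.94 in the Ptch1+/-, 9.19, 9.14, 9.70, 9.24 and 9.50 in the MERP and 8.57, 9.21, 9.46 and 9.29 in the GTML tumours, and 9.37, 9.15 and 8.99 in the GNPs and 8.94, 9.05, 8.89 and 8.97 in adult cerebellum. Its groups lay over each other, except that the MERP arrays all stood above the adult arrays, and none of the 5 differences passed the test (adjusted p = 0.701, 0.665, 0.0622, 0.467 and 0.429 in the same order, limma).

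Orc1, the subunit whose level is known to follow the cell cycle, differed between the groups in another way. It read 6.48, 6.41 and 6.61 in the CRISPR-Ptch1, 7.47, 7.40, 7.50 and 7.61 in the Ptch1+/-, 6.85, 6.72, 7.10, 7.04 and 6.78 in the MERP and 8.11, 8.07, 7.47 and 7.43 in the GTML tumours, and 7.03, 6.40 and 6.43 in the GNPs and 6.32, 6.55, 6.36 and 6.14 in adult cerebellum. Ptch1+/-, GTML and MERP tumours stood above all adult arrays, while CRISPR-Ptch1 tumours overlapped with them. The difference from adult cerebellum was 1.15 (SE 0.16, adjusted p = 2.33e-06) in Ptch1+/- and 1.43 (SE 0.16, adjusted p = 1.09e-07) in GTML tumours, 0.55 (SE 0.15, adjusted p = 0.00354) in MERP tumours, and 0.16 (SE 0.17, adjusted p = 0.499) in CRISPR-Ptch1 tumours. Another Orc1 probe set, that with the highest SD, gave a difference of -0.01 between Ptch1+/- tumours and GNPs and of -0.07 between GTML and the Ptch1 models, so that the direction for Orc1 depends on the probe set read. Orc3 read 9.50, 9.10, 9.35 and 9.24 in Ptch1+/- tumours and 8.89, 8.86, 8.88 and 8.94 in adult cerebellum, a separation of 0.41 (SE 0.11, adjusted p = 0.00249) that was the smallest called one in this comparison. With the mean of the Orc3 probe sets it was -0.37, and with the probe set of highest SD -0.64. The remaining arrays of Orc3 read 9.54, 9.40 and 9.89 in CRISPR-Ptch1, 9.64, 9.73, 9.75, 9.71 and 9.91 in MERP and 9.58, 9.82, 9.54 and 9.71 in GTML tumours, and 9.68, 9.72 and 9.60 in GNPs. Orc5 read 9.10, 9.07 and 9.23 in the CRISPR-Ptch1, 9.45, 8.78, 8.66 and 8.46 in the Ptch1+/-, 9.45, 9.40, 9.63, 9.62 and 9.67 in the MERP and 9.53, 9.84, 9.43 and 9.996 in the GTML tumours, and 9.14, 9.23 and 9.08 in the GNPs and 8.64, 8.72, 8.67 and 8.61 in adult cerebellum. Its GNP arrays lay above the adult arrays by 0.49 (SE 0.17, adjusted p = 0.019), the smallest called difference of that comparison and one that was lost after centring on the gene table, whereas the Ptch1+/- arrays lay on both sides of them.

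The licensing and initiation factors Cdc6, Cdt1, Gmnn and Mcm10 were all higher than in adult cerebellum in every group. Cdc6, which helps load MCM, read 9.47, 9.31 and 9.51 in the CRISPR-Ptch1, 9.27, 8.70, 8.79 and 8.54 in the Ptch1+/-, 9.85, 9.53, 9.57, 9.34 and 9.54 in the MERP and 9.07, 9.65, 9.31 and 9.93 in the GTML tumours, and 9.002, 9.46 and 9.55 in the GNPs and 4.18, 3.81, 3.76 and 3.87 in adult cerebellum. Adult values were near background (the lower quartile of the adult arrays was 4.48), so the differences of 5.53, 4.92, 5.66, 5.59 and 5.43 in CRISPR-Ptch1, Ptch1+/-, MERP, GTML and GNPs are lower limits. Gmnn, the licensing inhibitor, read 10.23, 9.98 and 10.03 in the CRISPR-Ptch1, 10.002, 9.60, 10.16 and 9.71 in the Ptch1+/-, 10.74, 10.39, 10.29, 10.62 and 10.34 in the MERP and 10.06, 10.42, 10.31 and 10.80 in the GTML tumours, and 10.46, 10.74 and 10.70 in the GNPs and 7.31, 7.37, 7.52 and 7.30 in adult cerebellum. It stood above the adult arrays throughout, by 2.70, 2.49, 3.10, 3.02 and 3.26 in the same order. Cdt1, the MCM loader that geminin blocks, read 12.13, 11.98 and 12.02 in the CRISPR-Ptch1, 12.55, 12.32, 12.49 and 12.28 in the Ptch1+/-, 12.30, 12.34, 12.51, 12.15 and 12.56 in the MERP and 12.96, 13.06, 13.24 and 12.81 in the GTML tumours, and 12.15, 12.22 and 12.18 in the GNPs and 8.35, 8.38, 8.29 and 8.45 in adult cerebellum. Every GTML array stood above every array of the other groups for Cdt1.

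Among the CMG partners, which turn loaded MCM into the moving helicase, Gins1 had the widest and Gins4 the narrowest span. Gins1 read 10.25, 9.87 and 10.38 in the CRISPR-Ptch1, 10.06, 9.77, 9.97 and 9.79 in the Ptch1+/-, 10.74, 10.47, 10.44, 10.51 and 10.35 in the MERP and 10.05, 10.82, 10.35 and 10.45 in the GTML tumours, and 10.44, 10.54 and 10.59 in the GNPs and 5.62, 5.65, 5.68 and 5.36 in adult cerebellum. The highest adult array, at 5.68, was far below the lowest of the others, at 9.77, and the differences were 4.59, 4.32, 4.93, 4.84 and 4.95. Gins4 read 9.96, 9.93 and 9.92 in the CRISPR-Ptch1, 9.23, 8.73, 8.70 and 8.38 in the Ptch1+/-, 9.89, 9.73, 9.03, 10.03 and 9.83 in the MERP and 9.64, 10.33, 9.76 and 9.86 in the GTML tumours, and 9.42, 9.60 and 9.67 in the GNPs and 8.27, 8.39, 8.34 and 8.32 in adult cerebellum. CRISPR-Ptch1, MERP and GTML tumours and GNPs stood above adult cerebellum, while the Ptch1+/- arrays reached down to it. The difference was 1.60 (SE 0.20, adjusted p = 9.01e-07) in CRISPR-Ptch1 tumours and 0.43 (SE 0.19, adjusted p = 0.0587) in Ptch1+/- tumours.

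Pcna encodes the sliding clamp that is stained as a proliferation antigen. It read 13.39, 13.36 and 13.38 in the CRISPR-Ptch1, 13.24, 12.89, 12.64 and 12.63 in the Ptch1+/-, 13.46, 13.28, 12.87, 13.28 and 13.39 in the MERP and 12.87, 13.10, 13.04 and 13.39 in the GTML tumours, and 13.31, 13.49 and 13.50 in the GNPs and 11.04, 11.09, 11.24 and 11.12 in adult cerebellum. The lowest tumour array, at 12.63, stood above the highest adult array, at 11.24, and the difference was 4.77-fold (log2 difference 2.25, SE 0.15, adjusted p = 6.22e-11) in CRISPR-Ptch1, 3.31-fold (log2 difference 1.73, SE 0.14, adjusted p = 6.93e-10) in Ptch1+/-, 4.38-fold (log2 difference 2.13, SE 0.13, adjusted p = 8.98e-12) in MERP and 3.94-fold (log2 difference 1.98, SE 0.14, adjusted p = 8.46e-11) in GTML tumours. In the clamp loader, Rfc4 read 10.73, 10.57 and 10.91 in the CRISPR-Ptch1, 10.39, 9.87, 9.28 and 9.03 in the Ptch1+/-, 11.30, 10.83, 10.56, 11.23 and 10.90 in the MERP and 10.17, 10.87, 10.20 and 10.89 in the GTML tumours, and 10.81, 11.03 and 10.98 in the GNPs and 7.31, 7.48, 7.42 and 7.46 in adult cerebellum. Ptch1+/- tumours were the lowest of the 5 dividing groups for Rfc4 and the most spread, and the differences from adult cerebellum were 3.32, 2.22, 3.54, 3.11 and 3.52 in the order given above. Rfc2, with the narrowest span of the loader, read 10.36, 10.23 and 10.44 in the CRISPR-Ptch1, 10.37, 10.03, 10.52 and 10.33 in the Ptch1+/-, 10.54, 10.52, 10.64, 10.72 and 10.48 in the MERP and 10.38, 10.39, 10.27 and 10.32 in the GTML tumours, and 10.39, 10.46 and 10.37 in the GNPs and 9.08, 9.002, 9.08 and 9.10 in adult cerebellum. Its differences lay between 1.25 in Ptch1+/- and 1.52 in MERP tumours, and no array overlapped with adult cerebellum.

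The 9 polymerase and primase genes were all higher than in adult cerebellum in all 5 groups, with medians between 2.26 in Ptch1+/- and GTML tumours and 2.89 in MERP tumours. Pole, the catalytic subunit of the leading-strand polymerase epsilon, read 9.42, 9.27 and 9.82 in the CRISPR-Ptch1, 9.51, 9.16, 8.996 and 9.22 in the Ptch1+/-, 9.34, 9.69, 9.72, 9.34 and 9.98 in the MERP and 9.71, 10.13, 10.09 and 9.67 in the GTML tumours, and 9.54, 9.16 and 9.27 in the GNPs and 5.05, 5.45, 5.04 and 5.39 in adult cerebellum. It was the widest of them, with differences of 4.27, 3.99, 4.38, 4.67 and 4.09. Pold3, an accessory subunit of polymerase delta, read 9.86, 9.86 and 9.96 in the CRISPR-Ptch1, 9.44, 9.70, 10.22 and 10.05 in the Ptch1+/-, 9.98, 10.004, 10.31, 10.03 and 10.12 in the MERP and 10.16, 10.23, 10.56 and 10.13 in the GTML tumours, and 9.83, 9.78 and 9.63 in the GNPs and 8.52, 8.67, 8.61 and 8.66 in adult cerebellum. It was the narrowest, yet no array overlapped with adult cerebellum, and the differences were 1.28, 1.24, 1.47, 1.66 and 1.13. Pola2, the B subunit of polymerase alpha, read 9.30, 9.01 and 9.53 in the CRISPR-Ptch1, 9.78, 9.37, 9.58 and 9.41 in the Ptch1+/-, 9.73, 9.89, 9.83, 9.79 and 9.44 in the MERP and 9.10, 9.13, 8.96 and 8.84 in the GTML tumours, and 9.17, 9.19 and 9.09 in the GNPs and 6.61, 7.03, 6.88 and 6.89 in adult cerebellum. The MERP and Ptch1+/- arrays were its highest, with the TF tumour among them. Pold1, the catalytic subunit of polymerase delta, read 10.46, 10.29 and 10.64 in the CRISPR-Ptch1, 11.03, 10.68, 11.29 and 10.84 in the Ptch1+/-, 10.94, 11.13, 11.36, 11.24 and 11.07 in the MERP and 10.63, 10.48, 10.43 and 10.25 in the GTML tumours, and 10.84, 10.69 and 10.63 in the GNPs and 8.07, 8.25, 8.29 and 8.15 in adult cerebellum. Its CRISPR-Ptch1 and GTML arrays lay below those of MERP tumours.

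Of the RPA subunits, Rpa2 read 10.56, 10.49 and 10.66 in the CRISPR-Ptch1, 10.32, 10.08, 10.72 and 10.14 in the Ptch1+/-, 11.01, 10.79, 10.94, 10.81 and 10.76 in the MERP and 10.83, 10.85, 10.54 and 10.83 in the GTML tumours, and 10.39, 10.74 and 10.77 in the GNPs and 8.12, 8.29, 8.15 and 8.29 in adult cerebellum. Its arrays were well separated from adult cerebellum, by 2.36, 2.11, 2.65, 2.55 and 2.42. Rpa1, the large subunit, also serves in DNA repair and read 12.04, 12.08 and 12.29 in the CRISPR-Ptch1, 11.88, 11.71, 12.13 and 11.90 in the Ptch1+/-, 12.43, 12.20, 12.25, 12.19 and 12.43 in the MERP and 11.98, 12.15, 11.93 and 12.22 in the GTML tumours, and 12.28, 12.36 and 12.40 in the GNPs and 11.71, 11.69, 11.69 and 11.73 in adult cerebellum. The adult arrays lay close below the other groups and overlapped with Ptch1+/- tumours, and the difference was 0.43 (SE 0.11, adjusted p = 0.00182) in CRISPR-Ptch1 tumours, the smallest called one there and lost after centring on the gene table, and 0.37 (SE 0.10, adjusted p = 0.0031) in GTML tumours. In Ptch1+/- tumours it was 0.20 (SE 0.10, adjusted p = 0.0946). Of the enzymes that finish Okazaki fragments, Lig1 read 11.53, 11.41 and 11.45 in the CRISPR-Ptch1, 11.58, 11.24, 11.37 and 11.35 in the Ptch1+/-, 11.65, 11.65, 11.39, 11.52 and 11.57 in the MERP and 11.48, 11.15, 11.38 and 11.22 in the GTML tumours, and 11.47, 11.63 and 11.64 in the GNPs and 8.20, 8.30, 8.31 and 8.35 in adult cerebellum. Its differences from adult cerebellum were uniform, between 3.02 in GTML tumours and 3.29 in GNPs. Fen1, the flap endonuclease, read 11.52, 11.42 and 11.35 in the CRISPR-Ptch1, 11.33, 11.12, 11.60 and 11.20 in the Ptch1+/-, 11.67, 11.49, 11.41, 11.48 and 11.26 in the MERP and 11.51, 11.85, 11.48 and 11.61 in the GTML tumours, and 11.59, 11.67 and 11.77 in the GNPs and 10.22, 10.21, 10.25 and 10.22 in adult cerebellum. Its adult level was separated from all others by a smaller margin, from 1.08 in Ptch1+/- tumours to 1.45 in GNPs.

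Rrm2, the S-phase subunit of ribonucleotide reductase, had the highest difference from adult cerebellum of the 45 members in each of the 5 groups. It read 12.24, 12.43 and 12.36 in the CRISPR-Ptch1, 12.10, 12.11, 12.55 and 12.39 in the Ptch1+/-, 12.82, 12.64, 12.77, 12.49 and 12.43 in the MERP and 12.36, 12.84, 12.80 and 12.46 in the GTML tumours, and 12.66, 12.81 and 12.80 in the GNPs and 6.05, 6.88, 6.08 and 6.46 in adult cerebellum. The tumours and GNPs lay between 12.10 and 12.84 and the adult arrays between 6.05 and 6.88. The difference was 63-fold (log2 difference 5.98, SE 0.17, adjusted p = 6.92e-17) in CRISPR-Ptch1 tumours, 60.6-fold in Ptch1+/-, 76.9-fold in MERP, 76-fold in GTML and 84-fold in GNPs. Tk1, the thymidine kinase of the salvage route, read 9.56, 9.48 and 9.41 in the CRISPR-Ptch1, 9.72, 9.07, 9.13 and 8.71 in the Ptch1+/-, 10.47, 9.92, 9.54, 9.98 and 9.92 in the MERP and 8.34, 8.91, 8.83 and 8.84 in the GTML tumours, and 10.03, 10.11 and 10.17 in the GNPs and 4.18, 4.54, 4.25 and 4.75 in adult cerebellum. Its adult level was near background, so the differences of 5.05, 4.73, 5.54, 4.30 and 5.67 are lower limits. GTML tumours were the lowest of the dividing groups for Tk1.

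Tyms, thymidylate synthase, read 5.56, 5.74 and 5.63 in the CRISPR-Ptch1, 7.14, 7.01, 6.95 and 7.19 in the Ptch1+/-, 5.33, 5.97, 6.12, 4.93 and 6.72 in the MERP and 6.98, 6.32, 6.55 and 6.01 in the GTML tumours, and 6.88, 5.98 and 5.77 in the GNPs and 4.05, 4.09, 3.73 and 4.07 in adult cerebellum, with the adult values near background. The probe set taken by the rule was dim, and other probe sets of the gene ran the other way between models. A brighter probe set annotated to Tyms and its pseudogene Tyms-ps, which the rule left out, had means of 10.27 in CRISPR-Ptch1, 9.29 in Ptch1+/-, 10.40 in MERP and 9.09 in GTML tumours, 10.79 in GNPs and 5.32 in adult cerebellum. Both placed adult cerebellum lowest, but the chosen probe set put Ptch1+/- tumours highest and the shared probe set put them below CRISPR-Ptch1 and MERP tumours. Differences in Tyms between models, and between models and GNPs, are therefore given as uncertain.

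**Figure D4:**
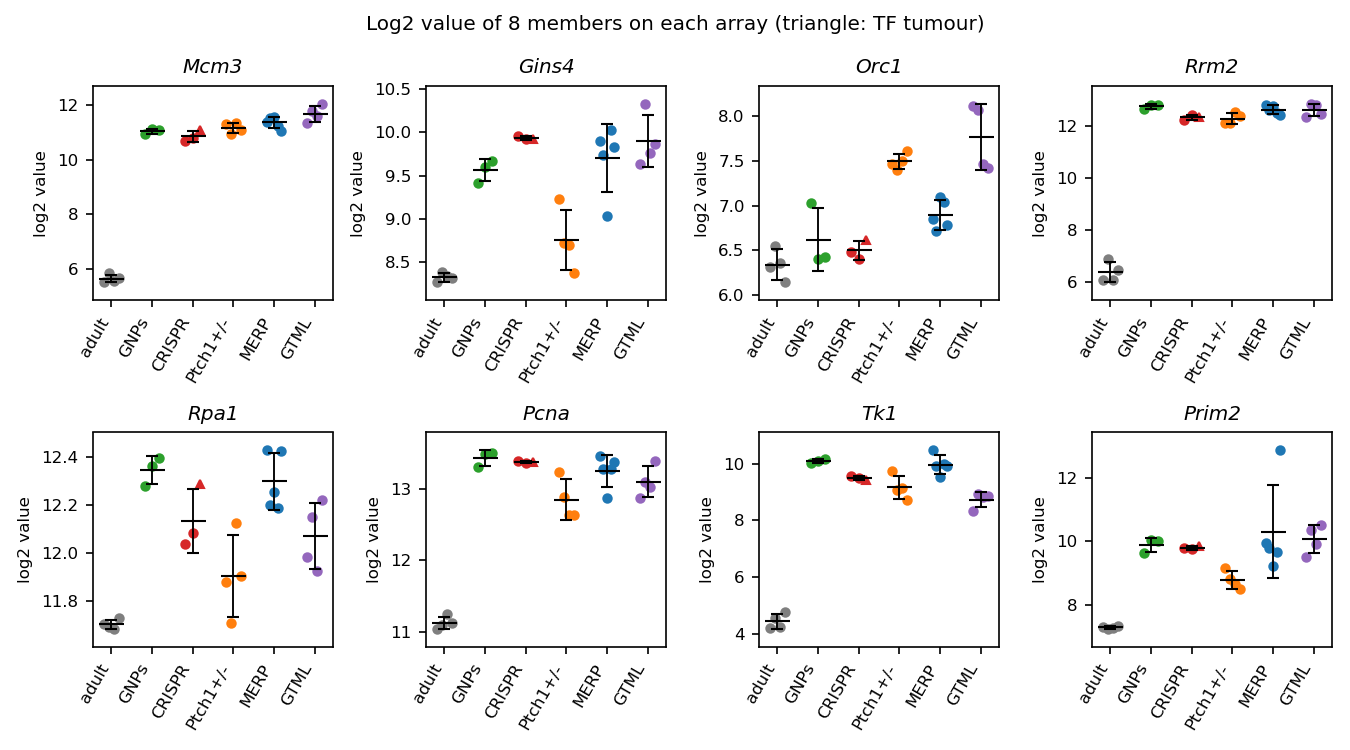
Log2 expression of 8 members (Mcm3, Gins4, Orc1, Rrm2, Rpa1, Pcna, Tk1 and Prim2) in the 6 groups, with 1 dot per array, a triangle for the TF tumour, and the mean with its SD. Adult cerebellum is lowest for each, by 5.21 for Mcm3 and 5.98 for Rrm2 but by 0.43 for Rpa1 in CRISPR-Ptch1 tumours, and 1 MERP tumour reads 12.87 for Prim2.

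Genes of the same pathway outside the 45 were also mostly higher than in adult cerebellum. Like the members, these lists were chosen with earlier results of these data known, so they are no independent support. Of 29 other replication genes listed, 28 were higher in CRISPR-Ptch1, 28 in Ptch1+/-, 27 in MERP and 27 in GTML tumours and 26 in GNPs. Of all genes, 26.4%, 22.4%, 30.8%, 27.3% and 29.1% were called higher in the same order. The highest in CRISPR-Ptch1 tumours was Dscc1, a subunit of an alternative clamp loader, at 6.12 (SE 0.23, adjusted p = 4.39e-15), and the lowest was Pold4, a small subunit of polymerase delta, at -0.04 (SE 0.14, adjusted p = 0.854). Pold4 was lower than in adult cerebellum in Ptch1+/- (-0.98) and GTML tumours (-0.80). Of 26 other nucleotide synthesis genes, 21, 18, 24, 23 and 21 were higher in CRISPR-Ptch1, Ptch1+/-, MERP, GTML and GNPs, and 0, 2, 0, 1 and 1 were lower. The shares of all genes called lower were 21.1%, 30.8%, 24.9%, 27.9% and 21.0%. The lowest in CRISPR-Ptch1 tumours was Rrm2b, the ribonucleotide reductase subunit that works outside S phase and is a target of p53, at -0.24 (SE 0.19, adjusted p = 0.312), and in Ptch1+/- tumours it was lower by -1.41 (SE 0.17, adjusted p = 4.17e-07).

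The GNP preparations held more signal of vessels, meninges and choroid plexus than the tumours, which stands beside each comparison with them. The summed level (on the log2 scale) of 8 endothelial and pericyte markers was 13.6 to 14.2 in GNPs, against 12.2 to 12.5 in CRISPR-Ptch1, 10.7 to 11.7 in Ptch1+/-, 10.05 to 11.3 in MERP and 11.8 to 12.7 in GTML tumours. For 5 markers of meninges and fibroblasts it was 13.6 to 14.03 in GNPs, against 10.8 to 12.03, 9.01 to 10.5, 9.11 to 10.6 and 10.7 to 13.01 in the same order. For 5 choroid plexus markers it was 14.9 to 15.1 in GNPs, against 8.64 to 14.3, 7.97 to 14.7, 9.22 to 13.2 and 7.15 to 13.6. None of these ranges overlapped with that of GNPs, and none of these markers was near background in GNPs or tumours. Their part in the results was not tested.

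Between CRISPR-Ptch1 tumours and GNPs few replication genes passed the test. Of the 45, 1 was called, Gmnn, as lower in the tumours (13.7% of all genes were called, 7.95% as lower and 5.79% as higher), and the median difference was -0.06. The 3 tumours read 10.23, 9.98 and 10.03 for Gmnn and the GNPs 10.46, 10.74 and 10.70, with no overlap and a difference of -0.55 (SE 0.17, adjusted p = 0.0329). In 8 alternative settings, centring on the gene table among them, this call was lost, with adjusted p from 0.0566 to 0.168. The 4 genes of nucleotide synthesis had a median of -0.49, from -0.62 for Tk1 to -0.38 for Rrm1, and none of them passed. The 9 dividing cell markers measured had a median of -0.19, from -0.37 for Mki67 to 0.10 for Cdk1. Microglia and macrophage markers were higher in the tumours for 5 of 8 (median 2.22), with summed levels of 12.8 to 13.8 against 11.6 to 11.9 in GNPs, and their part in the result was not tested. With 3 arrays on each side, these values do not show that the groups are alike.

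MERP tumours were higher than GNPs for 5 members and lower for 0 (19.2% of all genes were called, 7.12% as higher), with a median of 0.18. The 5 were Pola2 at 0.58 (SE 0.13, adjusted p = 0.00269), Orc6 at 0.47, Pold1 at 0.43, Rfc5 at 0.37 and Mcm7 at 0.24 (SE 0.08, adjusted p = 0.0457). Mcm7, a helicase subunit, read 13.24, 13.17 and 13.27 in the CRISPR-Ptch1, 13.55, 13.32, 13.26 and 13.33 in the Ptch1+/-, 13.36, 13.44, 13.40, 13.39 and 13.39 in the MERP and 13.004, 13.01, 13.08 and 12.79 in the GTML tumours, and 13.19, 13.12 and 13.15 in the GNPs and 9.67, 9.78, 9.75 and 9.80 in adult cerebellum. The MERP arrays stood in a narrow band above the 3 GNP arrays. The count fell to 2 without any 1 GNP array and to 3 without MERP 4 or MERP 5. It rose to 26 higher and 0 lower after centring on the gene table, under which the median difference of all genes was 0.31 instead of 0.05. With the control gap as a covariate 3 of the 5 calls were kept, without Mcm7 and Pold1. The call of Pola2 was lost with the mean of a gene's probe sets, and that of Mcm7 with the probe set of highest SD.

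Ptch1+/- tumours were lower than GNPs for 18 members and higher for 3 (39.3% of all genes were called, 29.9% as lower and 9.40% as higher). The median of the members was -0.31 and that of all genes -0.10. Rfc4 was the lowest, with a difference of -1.30 (SE 0.25, adjusted p = 0.000294), followed by Tk1 at -0.94 and Gins4 and Orc2 at -0.80. All 5 CMG partners were called lower, from -0.80 for Gins4 to -0.55 for Cdc45, and so was Pcna at -0.58 (SE 0.15, adjusted p = 0.00374). Orc1 was higher by 0.88 (SE 0.17, adjusted p = 0.000374), Tyms by 0.86 and Pola2 by 0.38. For Tyms the brighter probe set shared with Tyms-ps ran the other way, with means of 9.29 in Ptch1+/- tumours and 10.79 in GNPs. The direction of this comparison depended on the scaling. Centring on the gene table gave 18 members higher and 1, Rfc4, lower, with all 5 CMG partners lost and the median of all genes at 0.44, and a second quantile normalization gave 6 higher and 12 lower. With the control gap, which did not overlap between the 2 groups, as a covariate, 1 of the 21 calls was kept (Orc1). That call was itself lost with the Orc1 probe set of highest SD. With the mean of a gene's probe sets the calls of Orc2, Cdc45 and Tyms were lost. Of the dividing cell markers 4 of 9 were lower, with a median of -0.38, and their part in the result was not tested.

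GTML tumours were higher than GNPs for 8 members and lower for 3 (41.8% of all genes were called, 16.1% as higher and 25.7% as lower), with a median of 0.00. Orc1 was the highest at 1.15 (SE 0.17, adjusted p = 1.62e-05) and Cdt1 followed at 0.83 (SE 0.11, adjusted p = 3.97e-06). With the probe set of highest SD the calls of Orc1 and Pold3 were lost. Tk1 was the lowest at -1.37 (SE 0.21, adjusted p = 2.06e-05), which is 2.58-fold, and every GTML array stood below every GNP array. Lig1 and Rpa1 were lower by -0.27 and -0.28. After centring on the median of the gene table, 22 members were higher and 1, Tk1, was lower, at a median of all genes of 0.42, so that of the 3 lower calls that of Tk1 was kept. The control gap did not overlap between the 2 groups, and with it as a covariate 6 of the 11 calls were kept, without Mcm3, Pold3, Pole, Rpa1 and Lig1. All 8 GNP markers were lower in GTML tumours (median -3.77), with Gli1 near background, and their part in the result was not tested.

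CRISPR-Ptch1 tumours were compared with germline Ptch1+/- tumours, which have the same gene disrupted by another route. Most CMG partners and part of the clamp loader were called higher in CRISPR-Ptch1 tumours. Several of these calls depended on the scaling, and none was kept with the control gap as a covariate. Of the members, 13 were higher and 5 lower (36.8% of all genes were called, 28.5% as higher and 8.33% as lower), with a median of 0.23 against 0.12 for all genes. The share of members called higher, 13 of 45, was close to that of all genes. For Gins4 the 3 CRISPR-Ptch1 tumours read 9.96, 9.93 and 9.92 and the 4 Ptch1+/- tumours 9.23, 8.73, 8.70 and 8.38. The groups did not overlap, and the difference was 2.26-fold (log2 difference 1.18, SE 0.20, adjusted p = 0.00013). Of the 5 CMG partners 4 were called, Gins4, Cdc45 at 0.86, Gins2 at 0.82 and Gins3 at 0.74, while Gins1 had 0.27 (SE 0.15, adjusted p = 0.181). Rfc4 was higher by 1.10 (SE 0.25, adjusted p = 0.00165) and Pcna by 0.53 (SE 0.15, adjusted p = 0.0086). Tyms was lower by -1.43 (SE 0.31, adjusted p = 0.0011), but by -0.14 (adjusted p = 0.298) with the mean of its probe sets. Orc1 was lower by -0.996, Mcm2 by -0.64, Pold1 by -0.50 and Cdt1 by -0.37. With the probe set of highest SD the calls of Orc1, Orc2 and Cdt1 were lost. With the mean of a gene's probe sets those of Orc2, Cdt1, Cdc45, Pola1 and Tyms were lost.

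This comparison was sensitive to scaling and to single arrays. Centring on the gene table gave 3 members higher (Cdc45, Gins4 and Rfc4) and 15 lower, at a median of all genes of -0.36, and a second quantile normalization gave 6 higher and 8 lower. The CMG partners stood above the median of all genes by 0.70. Centring leaves this distance as it is by construction, so the distance is no test of the scaling. The count of 18 fell to 11 without the TF tumour or without Ptch1+/- 4. The control gap of the 2 groups did not overlap, and with it as a covariate 0 of the 18 calls were kept. Markers of microglia and Purkinje cells were also higher in CRISPR-Ptch1 tumours. Their summed levels were 12.81 to 13.8 and 11.0 to 13.6 against 10.4 to 12.84 and 8.57 to 9.22 in Ptch1+/- tumours, where Calb1 was near background. The microglia ranges overlapped. Median differences of the other cell type lists ranged from -0.50 for GNP markers to 1.61 for meninges and fibroblasts, with astrocytes at 1.60 and oligodendrocytes at 1.55. Mog and Ermn were near background in Ptch1+/- tumours. Their part in the result was not tested.

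The TF tumour stood above both EP tumours for 33 of the 45 members (73.3%) and below both for 5, whereas 40.7% of all genes were above both. The median of TF minus the mean of EP was 0.17 for the members and 0.00 for all genes. The widest of these was Orc4, at 8.88, 8.86 and 9.47, followed by Pold2 with 0.57 and Mcm6 with 0.55. This difference was not tested, and the delivery, the Trp53 status and the single tumour cannot be told apart.

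MERP tumours were called higher than Ptch1+/- tumours for all 5 CMG partners, with the call of Gins1 depending on the scaling. In MERP tumours 23 members were higher and 2 lower (32.0% of all genes were called, 25.9% as higher and 6.08% as lower), with a median of 0.40 against 0.14 for all genes. The CMG partners were higher with a median of 0.92 and values of 0.92 (SE 0.12, adjusted p = 1.3e-05) for Cdc45, 0.60 for Gins1, 0.87 for Gins2, 0.93 for Gins3 and 0.94 for Gins4. Rfc4 was higher by 2.5-fold (log2 difference 1.32, SE 0.22, adjusted p = 0.000118), with every MERP array above every Ptch1+/- array. Orc2 at 0.86, Tk1 at 0.81, Pold2 at 0.75 and Cdc6 at 0.74 were also higher, and Pcna was higher by 0.40 (SE 0.13, adjusted p = 0.0228). Orc1 was lower by -0.60, a call that was lost with its probe set of highest SD. Tyms was lower by -1.26, and by -0.03 (adjusted p = 0.835) with the mean of its probe sets. With this mean the calls of Orc1, Orc2 and Prim2 were also lost.

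Prim2, the large subunit of primase, had the highest called difference in this comparison, 1.52 (SE 0.46, adjusted p = 0.014), and it rested in part on 1 array. It read 9.79, 9.75 and 9.86 in the CRISPR-Ptch1, 9.16, 8.82, 8.66 and 8.51 in the Ptch1+/-, 9.95, 9.79, 9.24, 9.68 and 12.87 in the MERP and 9.53, 10.37, 9.94 and 10.51 in the GTML tumours, and 9.65, 10.04 and 10.01 in the GNPs and 7.31, 7.24, 7.28 and 7.35 in adult cerebellum. MERP 5, at 12.87, stood far above the 9.24 to 9.95 of the other MERP tumours. Without it the difference was 0.88 (adjusted p = 0.00135, limma). The other 2 probe sets of Prim2 were high in the same tumour, at 11.56 against 9.55 to 9.998 and at 8.79 against 5.66 to 5.93 in the other MERP tumours.

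After centring on the gene table, 11 members were higher and 2 lower in MERP than in Ptch1+/- tumours, at a median of all genes of -0.14, and Cdc45, Gins2, Gins3 and Gins4 were still called while Gins1 was not. The CMG partners stood 0.78 above the median of all genes. The control gap overlapped between the 2 groups (0.40 to 1.71 in MERP, 0.99 to 1.53 in Ptch1+/-), and with it as a covariate 21 of the 25 calls were kept, without Pcna, Prim2, Pole2 and Rpa3. Of the dividing cell markers, 5 of 9 were higher and 0 lower in MERP tumours (median 0.39), and their part in the result was not tested.

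CRISPR-Ptch1 tumours were lower than MERP tumours for 6 members and higher for 0 (13.3% of all genes were called, 5.15% as lower), with a median of -0.20. Pold1 had the lowest difference, -0.69 (SE 0.13, adjusted p = 0.00202), with no overlap between the groups. The others were Mcm2 at -0.53, Orc6 and Mcm3 at -0.51, Pola2 at -0.45 and Cdt1 at -0.33 (SE 0.11, adjusted p = 0.0478). None of the CMG partners passed here, and their differences ranged from -0.33 for Gins1 to 0.23 for Gins4. The count was 1 without EP 1 or without EP 2 and 2 without MERP 2 or MERP 3. It was 20 lower and 0 higher after centring on the gene table, under which the called genes as a whole also moved towards lower. With the mean of a gene's probe sets the calls of Mcm3 and Cdt1 were lost. The control gap did not overlap between the 2 groups (0.19 to 0.23 against 0.40 to 1.71), and with it as a covariate 0 of the 6 calls were kept. Markers of other cells were higher in CRISPR-Ptch1 tumours, for 6 of 6 Purkinje cell genes (median 3.40; summed level 11.03 to 13.6 against 8.13 to 9.43, with Calb1 near background in MERP tumours), 4 of 7 oligodendrocyte genes (median 1.76; 11.2 to 13.3 against 10.2 to 10.9, with Mog and Ermn near background in MERP tumours) and 7 of 8 microglia and macrophage genes (median 1.68; 12.8 to 13.8 against 11.3 to 12.2). Their part in the result was not tested.

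GTML tumours, which are driven by Mycn rather than by loss of Ptch1, were set against the mean of the 3 Ptch1 groups. Of the origin recognition genes 4 were higher, as was Cdt1, and Tk1 was lower. In all, 12 members were higher and 5 lower (42.4% of all genes were called, 20.5% as higher and 21.9% as lower), with a median of 0.18 against 0.02 for all genes. Orc1 was the highest at 0.80 (SE 0.13, adjusted p = 3.63e-05), and Cdt1, by 0.74 (SE 0.09, adjusted p = 3.82e-07), and Cdc45, by 0.66 (SE 0.10, adjusted p = 2.41e-05), stood above all Ptch1-driven arrays, as did 5.72% of all genes. The other higher members were Mcm3 at 0.56, Orc5 at 0.52, Gins2 at 0.50, Pold2 at 0.48, Pole at 0.45, Gins4 and Orc6 at 0.43, Orc2 at 0.36 and Pold3 at 0.33. With the probe set of highest SD the calls of Orc1, Orc2, Gins2 and Pold3 were lost, and with the mean of a gene's probe sets those of Orc2 and Pola2. Tk1 was the lowest at -0.80 (SE 0.16, adjusted p = 0.000308), its 4 arrays lying between 8.34 and 8.91. Mcm7 was lower by -0.36 (SE 0.07, adjusted p = 0.000146) and stood below all Ptch1-driven arrays, as did 7.41% of all genes, whereas Mcm3 of the same helicase was higher. Mcm4 was lower by -0.36, Pola2 by -0.51 and Pold1 by -0.41. After centring on the median of the gene table, 21 members were higher and 2, Tk1 and Pola2, lower, so that the lower calls of Mcm4, Mcm7 and Pold1 depend on the scaling. Among all called genes the share that was higher also rose after this centring. With the control gap as a covariate 15 of the 17 calls were kept, without Mcm4 and Pold3.

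**Figure D5:**
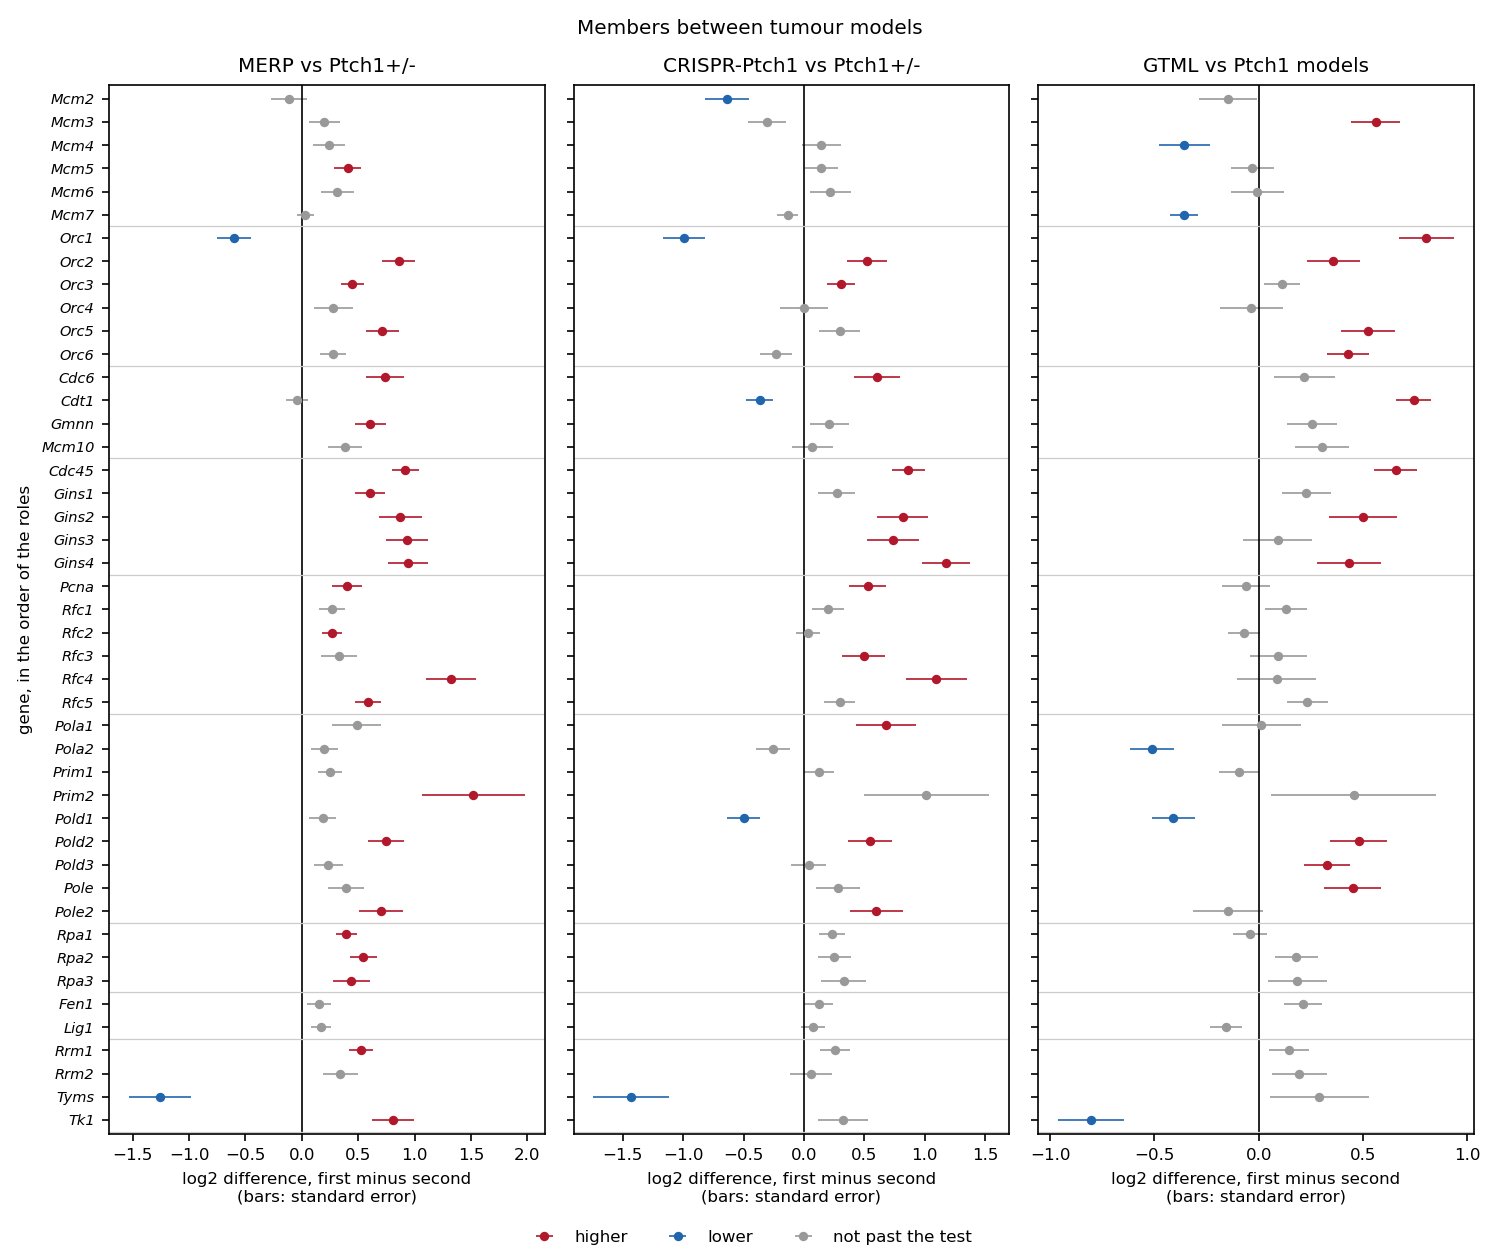
Log2 differences with their SE for the 45 members (rows, by role) in 3 comparisons of tumours: MERP and CRISPR-Ptch1 each against Ptch1+/-, and GTML against the mean of the 3 Ptch1 groups. Red points were called higher in the group named first, blue points lower, and grey points did not pass the test. The CMG partners lie to the right in the first 2 panels, with Gins4 at 0.94 and 1.18, and Tk1 lies to the left in the third at -0.80. Centring on the gene table, which moves all genes of an array alike, leaves 11 and 3 members higher in the first 2 panels and 21 in the third.

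Outside the 45 members, most of the other nucleotide synthesis genes were higher in GTML tumours. Of the 26, 15 were higher and 0 lower than in the Ptch1 models, where 20.5% of all genes were called higher. Their median was 0.51 against 0.02 for all genes, a distance of 0.49. Centring leaves this distance as it is by construction, so the distance is no test of the scaling. The highest was Dctd, dCMP deaminase, at 1.67 (SE 0.22, adjusted p = 2.35e-06), and the lowest was Tk2, the mitochondrial thymidine kinase, at -0.34 (SE 0.14, adjusted p = 0.056). Against GNPs 14 of the 26 were higher and 0 lower, where 16.1% of all genes were called higher. Of the 29 other replication genes, 3 were higher and 6 lower than in the Ptch1 models, where 20.5% and 21.9% of all genes were so called, from Chtf18, a clamp loader subunit, at -1.47 (SE 0.15, adjusted p = 9.96e-08) to Mcm8 at 0.80 (SE 0.13, adjusted p = 3.55e-05). The difference between these lists was not tested.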

How the data were processed

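Expression was measured on 23 Affymetrix arrays, and the log2 values deposited by the authors were computed with Affymetrix Expression Console 1.3.1 by RMA, which corrects background, quantile-normalizes the arrays and summarizes the probes of a probe set. Which arrays were normalized together is not given in the sources used here. Groups were taken from the sample titles. Of 45101 probe sets, 34958 are annotated to 1 gene (18194 genes), 932 to several and 9211 to none. All 6 groups entered 1 linear model (limma 3.58.1, R 4.3.3, moderated by eBayes), in which EP and TF tumours were pooled, and 13 comparisons were drawn from it. The Ptch1 models are the unweighted mean of 3 group means. Group means below the lower quartile of their arrays were read as near background.

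Members and lists were chosen with earlier results of these data known. Values per array are given for the widest and the narrowest member of each role, the highest and the lowest called member of each comparison, and Pcna. Alternatives were centring on all probe sets or on the gene table, quantile normalization again, a gene's mean over its probe sets, its most variable probe set, only the 12860 genes that exceeded 6.09 in 3 arrays or more, a variance trend with robust moderation, replicate number as a block, EP or TF tumours alone, and leaving out each array. A covariate for the 3′ to 5′ control gap was added after seeing the data. Promoters are those of RefSeq (GRCm38.p6). Some listed genes that are no members were not analysed here.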

Additional observations from a re-analysis of the deposited data

Results flagged for a closer look

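Among the 28 members with values per array, 112 groups of 4 or 5 arrays were searched for a single array that stood apart from its group by Dixon's criterion (gap over range above 0.829 for 4 and 0.71 for 5 arrays). Of these, 4 did so, where about 1 in 20 groups, or 5.6 of 112, would do so by chance. MERP 5 read 12.87 for Prim2, against 9.24 to 9.95 in the other MERP tumours, and the difference from Ptch1+/- tumours was 0.88 without it. The 10 nearest measured neighbour genes of Prim2, 5 on each side in the order of GRCm38.p6, differed between MERP 5 and the mean of the other MERP tumours by -0.24 to 0.49, while the probe set used for Prim2 differed by 3.21. GTML 3 read 10.54 for Rpa2, against 10.83 to 10.85 in the other GTML tumours. GTML 1 read 8.34 for Tk1, against 8.83 to 8.91. Adult cerebellum 3 read 3.73 for Tyms, against 4.05 to 4.09, all near background.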

How the results depend on the processing

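Of 234 member counts under alternatives, 197 stayed within 1.5 times the original count and 37 moved. These are counts of calls in either direction, so a turn of direction at a similar count is not seen in them. Such turns occurred after centring on the gene table for Ptch1+/- against GNPs and for CRISPR-Ptch1 against Ptch1+/-, as given with these comparisons. Of 451 values of 25 single called differences, 401 kept direction and call, 46 kept direction without passing the test, and 4 reversed. Those 4 were Orc3 in Ptch1+/- tumours against adult cerebellum (-0.37 with the mean of the probe sets, -0.64 with the probe set of highest SD) and, with the probe set of highest SD, Orc1 in Ptch1+/- tumours against GNPs (-0.0085) and in GTML tumours against the Ptch1 models (-0.0691). Among all called members, other comparisons also held 1 call in the opposite direction each. With the mean of the probe sets these were CRISPR-Ptch1 and MERP, each against Ptch1+/- tumours. With the probe set of highest SD they were MERP against adult cerebellum, Ptch1+/- against GNPs and MERP against Ptch1+/- tumours. All counts against adult cerebellum stayed within 1.5 times under each alternative, and over single arrays left out they were 41 to 43 for CRISPR-Ptch1, 40 to 41 for Ptch1+/-, 44 to 45 for MERP, 44 for GTML and 42 to 43 for GNPs. Of the genes called in either direction, centring on the gene table changed the share that was higher. Against adult cerebellum it moved this share from 55.6% to 43.2% for CRISPR-Ptch1, from 42.0% to 64.2% for Ptch1+/-, from 49.4% to 62.9% for GTML and from 58.1% to 41.8% for GNPs. In the comparisons named in the report it moved it from 23.9% to 80.5% (Ptch1+/- against GNPs), 37.1% to 79.0% (MERP against GNPs), 38.6% to 78.2% (GTML against GNPs), 77.4% to 20.7% (CRISPR-Ptch1 against Ptch1+/-), 61.4% to 23% (CRISPR-Ptch1 against MERP), 81% to 40.4% (MERP against Ptch1+/-) and 48.3% to 64.3% (GTML against the Ptch1 models).

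For CRISPR-Ptch1 tumours against GNPs the 1 call became 0 with gene-table centring, EP tumours alone or the TF tumour alone, 2 with quantile normalization or the mean of the probe sets, and 4 with the control gap as a covariate, and it ranged from 0 to 1 over single arrays left out. Gene-table centring gave 26 calls in place of 5 for MERP against GNPs, 23 in place of 11 for GTML against GNPs, 20 in place of 6 for CRISPR-Ptch1 against MERP and 13 in place of 25 for MERP against Ptch1+/-. With the covariate, 21 calls became 1 for Ptch1+/- against GNPs, 18 became 0 for CRISPR-Ptch1 against Ptch1+/- and for CRISPR-Ptch1 against MERP the 6 calls were lost and 1 other member was called. Of the 11 calls for GTML against GNPs 6 were kept. EP tumours alone gave 11 calls against Ptch1+/-, and the TF tumour alone gave 9, with 0 against MERP and 11 in place of 17 for GTML against the Ptch1 models. In the latter fits the lone array was assumed to vary like the other groups. Leaving out single arrays gave 13 to 23 calls for Ptch1+/- against GNPs (13 without GNPs 2 or GNPs 3), 2 to 4 for MERP against GNPs, 8 to 12 for GTML against GNPs, 11 to 23 for CRISPR-Ptch1 against Ptch1+/-, 1 to 6 for CRISPR-Ptch1 against MERP, 22 to 31 for MERP against Ptch1+/- and 13 to 22 for GTML against the Ptch1 models. The cause of these shifts was not tested, apart from the fewer arrays of the fits that leave some out.

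Replicate numbers did not pair the arrays. Of 46 pairs of arrays with the same number, 6 correlated above 0.1 in their deviations from the group means, with a median r of 0.00. With the number as a replicate block, which leaves out the TF tumour because its title has no number, the calls were 0 for CRISPR-Ptch1 against GNPs, 3 for MERP against GNPs and 11 for CRISPR-Ptch1 against Ptch1+/-. No detection calls are given, so that levels near background have no stated floor.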
